A study of Mus musculus with 4 samples.

Results

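The kinetochore is the protein assembly that builds on the centromere of each chromosome and holds it to the spindle. Its inner layer sits on nucleosomes that carry the histone variant CENP-A, and its outer layer binds microtubules. The spindle checkpoint is a signal sent from kinetochores that have no microtubule, and it delays anaphase until each has bound. The chromosomal passenger complex, built round the kinase Aurora B, frees kinetochores that are wrongly attached, and shugoshins guard the cohesin that joins sister centromeres. In the testis of a young mouse these proteins serve the mitoses of spermatogonia and of Sertoli cells.

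The 44 genes described here were taken by symbol from a table of 55357 gene identifiers, as 14 genes of the inner kinetochore, 15 of the outer kinetochore, 9 of the checkpoint and 6 of the passenger complex and shugoshins. Cenpe and Cenpf, whose proteins form the outermost corona, are counted with the outer kinetochore. The list was assembled by gene name and role, with earlier results of these data known. The messages were counted in testis cells of C57BL/6 mice aged 7 days, in 2 libraries of RNA precipitated with a DDX20 antibody (DDX20 RIP) and 2 libraries of input RNA, 10% of the total. Every library came from cells exposed to 254 nm light at 200 mJ per square cm, which crosslinks RNA to bound protein. DDX20, or Gemin3, is an RNA helicase and a subunit of the SMN complex, the assembly machine for the Sm cores of small nuclear RNAs. No precipitation with a control antibody was used here, so a higher value says that a message made up more of the RIP counts than of the input counts, and does not measure binding. The labels do not say that the replicates came from separate animals or cell preparations, so the p-values rest on a spread between libraries that could be technical. The catalogue numbers given for the antibody of the 2 RIP libraries differ in 1 character.

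The libraries held 38458014 and 37927689 counts in RIP, against 21913977 and 21416567 in input. Markers of the cells of a testis were present in the input, and all 8 germ cell and 8 Sertoli cell markers were measured. Germ cell markers summed to 209.4 and 207.9 CPM (counts relative to library size, with libraries scaled by the trimmed mean of M values, TMM) in RIP, against 431.3 and 411.5 CPM in input, with 2 of 8 higher and 5 lower, where 38.7% of all genes tested were higher and 38.6% lower. Sertoli cell markers summed to 870.2 and 875.6 CPM in RIP and 1418 and 1412 CPM in input, with 2 of 8 higher and 5 lower. Of 26 genes that mark red blood cells, macrophages, endothelium, Leydig cells and myoid or stromal cells, 1 was higher and 23 were lower, against the same 38.7% and 38.6% of all genes. The 44 kinetochore and checkpoint genes together summed to 2954 and 2932 CPM in RIP, against 2114 and 2083 CPM in input. The part of cell type in these values was not tested. The libraries are bulk, so these sums do not count the cells of a type.

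All 44 genes passed the filter on low counts. In edgeR's quasi-likelihood test with adjustment over all 17422 genes tested, at an adjusted p of 0.05, 23 of the 44 were higher in RIP, 13 were lower and 8 did not pass. Among all genes tested 38.7% were higher and 38.6% lower. At 2-fold or more, 9 of the 44 rose and 8 fell, against 17.1% and 23.5% of all genes tested. Both RIP libraries lay above both input libraries for 24 of the 44 and below them for 17, against 42.7% and 45.3% of all genes tested, and 3 overlapped. The median log2 fold change of the 44 was 0.21, against -0.05 over all genes tested. All 44 are protein-coding. Of the 14680 tested protein-coding genes 43.9% were higher and 35.0% lower, with a median of 0.10, nearer the values of the 44. The sub-groups stood apart in their counts. In the inner kinetochore 3 of 14 rose and 7 fell, and in the outer kinetochore 9 of 15 rose and 4 fell. In the checkpoint 7 of 9 rose and none fell, and in the passenger group 4 of 6 rose and 2 fell. The 0 falls in the checkpoint stayed 0 at an unadjusted p under 0.05 and with DESeq2, but were 2 with total counts. Over all genes tested the median stood at -0.40 when libraries were scaled by total counts and at -0.39 with the upper quartile. With either of these, 16 of the 44 were higher and 21 lower, against 28.7% and 50.8% of all genes with total counts and 28.8% and 50.5% with the upper quartile. Calls of 23 higher and 13 lower held with DESeq2 (36.2% and 31.9% of all genes), with relative log expression scaling (39.2% and 37.9%) and with the replicate number as a block (38.7% and 38.2%). Halved counts, which allow for mates counted singly, gave 22 of the 44 higher and 15 lower, against 41.1% and 41.3% of all genes. Among genes with a mean of at least 5 CPM, 19 of the 44 were higher and 19 lower, against 43.7% and 43.8%. With 1 library left out, 23 to 24 of the 44 were higher and 12 to 13 lower, against 34.1% to 36.6% and 27.6% to 32.4% of genes (32.3% lower without RIP replicate 1). Values within about that distance of 0 therefore depend on the scaling, and fold changes below are relative to TMM. Fold changes also moved with message size. A fit with an offset for coding length or whole message length is named below where it changed a call among the 44.

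**Figure D1:**
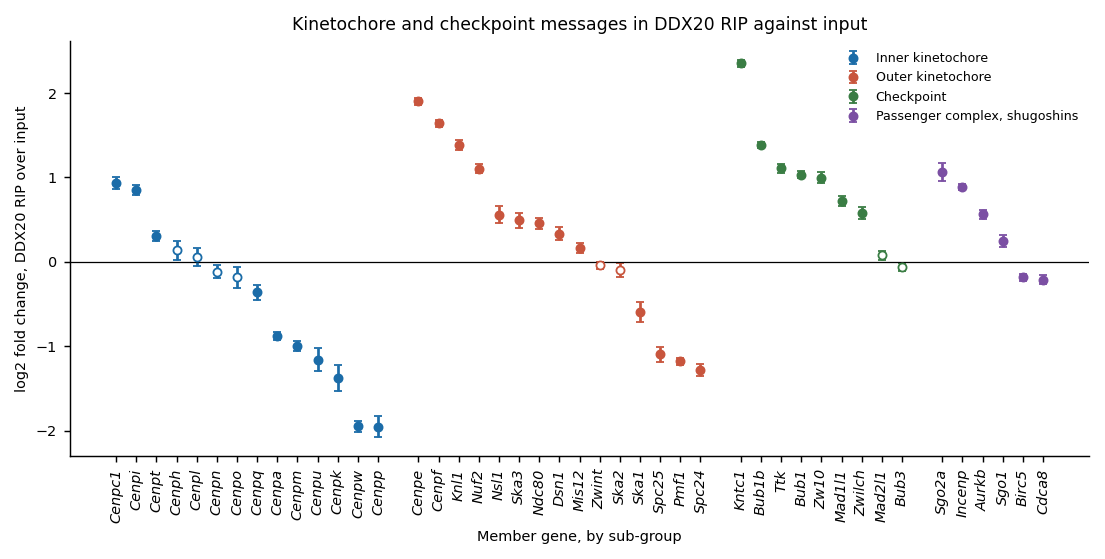
Log2 fold change of DDX20 RIP over input for each of the 44 genes, in 4 sub-groups and ordered by value within each. Points are fitted values with standard errors from 2 libraries per group, and open points did not pass an adjusted p of 0.05. Kntc1 stands highest at 2.35 and Cenpp lowest at -1.96.

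The checkpoint genes held the largest rise. Kntc1, the Rod subunit of the Rod-Zw10-Zwilch complex that brings dynein and the Mad proteins to kinetochores, stood at 236.5 and 228.0 CPM in RIP, against 48.1 and 42.8 CPM in input. The RIP libraries lay far above the input libraries, and the fold change was 5.10 (log2 2.35 ± 0.0449, SE, n = 2 per group; edgeR adjusted p = 3.82e-31). Its partners also rose, Zw10 by a log2 fold change of 1.00 and Zwilch by 0.58. Bub1b, which encodes BubR1, a part of the complex that inhibits the anaphase ligase, stood at 279.3 and 276.1 CPM in RIP, against 107.4 and 105.2 CPM in input (log2 1.39 ± 0.0343). Bub1b had the highest mean CPM of the 44 in RIP, a value not scaled by length. Ttk, the Mps1 kinase that starts the signal, stood at 83.6 and 81.7 CPM in RIP and 39.0 and 37.5 CPM in input (log2 1.11). Bub1, a kinase of the kinetochore and a relative of BubR1, stood at 146.1 and 150.3 CPM in RIP and 73.4 and 71.4 CPM in input (log2 1.03). Mad1l1, the anchor of Mad2 at kinetochores, rose by 0.72.

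The remaining checkpoint genes encode small proteins and did not pass the test. Mad2l1, whose protein changes shape to bind Cdc20, stood at 66.4 and 65.7 CPM in RIP, against 65.0 and 59.9 CPM in input. Its log2 fold change was 0.08, with a 95% interval from -0.02 to 0.18, and it passed as higher without input replicate 1 (0.16). Bub3, the adaptor that carries Bub1 and BubR1 to the kinetochore, stood at 80.6 and 87.2 CPM in RIP and 87.3 and 87.3 CPM in input, at -0.06 with an interval from -0.15 to 0.03. With total counts Mad2l1 (-0.27) and Bub3 (-0.41) were called lower. With the coding length offset Mad2l1 (0.86) and Bub3 (0.31) were called higher. All 9 checkpoint genes were higher in that fit and 0 lower, against 44.7% and 29.1% of genes. With the message length offset Mad2l1 was called higher (0.53) and Bub3 did not pass (0.08). The ratio of Bub1b to Mad2l1 counts was 4.21 and 4.20 in RIP, against 1.65 and 1.75 in input.

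In the outer kinetochore the long messages of the corona and of the scaffold rose most. Cenpe, a kinesin that carries chromosomes to the spindle equator, stood at 194.5 and 201.8 CPM in RIP, against 52.8 and 53.0 CPM in input. That is a 3.74-fold difference (log2 1.90 ± 0.0416; edgeR adjusted p = 1.71e-29), with no overlap between RIP and input. Cenpf, a large coiled-coil protein of the corona, stood at 185.7 and 185.7 CPM in RIP and 61.6 and 57.2 CPM in input (log2 1.64). Knl1, the scaffold on which Bub1, Bub3 and BubR1 assemble, stood at 134.3 and 125.9 CPM in RIP and 54.2 and 45.2 CPM in input (log2 1.39), but did not pass with the coding length offset (0.09). Zwint, which binds Knl1 and links it to the Rod complex, did not pass, at 110.7 and 103.7 CPM in RIP and 110.9 and 110.0 CPM in input (log2 -0.04, interval -0.12 to 0.04). It was called lower with total counts (-0.39) and higher with the offset for coding length (0.56) and for message length (0.33).

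The Ndc80 complex, the main microtubule binder of the kinetochore, was split between its subunits without an offset. Nuf2, which together with Ndc80 makes the microtubule-binding end, stood at 88.6 and 86.3 CPM in RIP, against 40.9 and 40.4 CPM in input (log2 1.11 ± 0.0527). Ndc80 rose by 0.45, and did not pass with total counts (0.11) or with the coding length offset (0.11). Spc24, which with Spc25 makes the end that docks on the inner kinetochore, stood at 24.0 and 21.8 CPM in RIP and 55.6 and 56.0 CPM in input (log2 -1.28 ± 0.0688). Spc25 stood at 12.4 and 12.4 CPM in RIP and 27.0 and 26.0 CPM in input (log2 -1.10). Spc25 did not pass with the offset for coding length (-0.19) or for message length (-0.16), while Spc24 and Nuf2 kept their calls under both. Summed counts of Ndc80 and Nuf2 over those of Spc24 and Spc25 gave ratios of 4.01 and 4.29 in RIP, against 1.05 and 0.98 in input. A ratio within a library does not depend on the scaling between libraries. In each ratio given here, the genes on top had higher fold changes than those below. A larger ratio in RIP therefore restates those fold changes, and carries any trend with length.

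The Mis12 complex, which joins the Ndc80 complex to the inner layer, was split without an offset. Pmf1 stood at 64.7 and 62.0 CPM in RIP, against 146.5 and 140.7 CPM in input (log2 -1.18 ± 0.0427). With the message length offset Pmf1 (-0.04), Nsl1 (0.03) and Mis12 (-0.0014) did not pass, and Dsn1 stayed higher (0.54). Nsl1 (0.56), Dsn1 (0.33) and Mis12 (0.17) rose with TMM scaling, while with total counts Nsl1 stood at 0.21 and Dsn1 at -0.02, neither called, and Mis12 was called lower at -0.18. Counts of Dsn1, Mis12 and Nsl1 over Pmf1 gave 1.63 and 1.68 in RIP, against 0.57 and 0.63 in input. In the Ska complex, which steadies the hold on growing and shrinking microtubules, Ska3 rose by 0.49 (0.15 with total counts, not called). Ska1 fell, at 9.75 and 10.3 CPM in RIP and 13.6 and 16.7 CPM in input (log2 -0.59), but did not pass with the coding length offset (0.0050). Ska2 did not pass, at 22.1 and 21.4 CPM in RIP and 23.3 and 23.3 CPM in input (log2 -0.10, interval -0.26 to 0.06), and was called lower with total counts (-0.45).

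**Figure D2:**
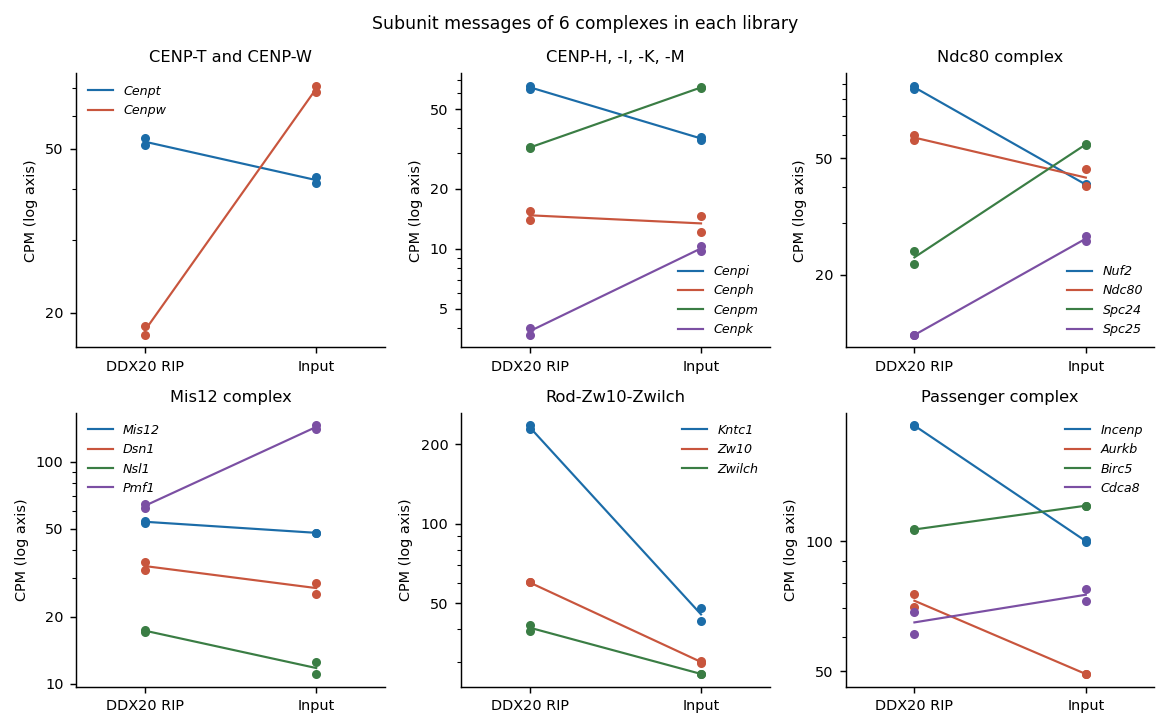
CPM on a log axis in each of 2 RIP and 2 input libraries for the subunits of 6 complexes, with lines joining the means of the groups. In 5 of the panels some subunits lie higher in RIP and others lower, while the 3 genes of the Rod-Zw10-Zwilch complex all lie higher in RIP. In the Ndc80 complex Nuf2 and Ndc80 lie higher in RIP than in input, and Spc24 and Spc25 lie lower.

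Without an offset, messages of the inner kinetochore were lower more often than higher, at 7 against 3 of 14. Among all genes tested 38.6% were lower and 38.7% higher. With the coding length offset 7 of the 14 were higher and 4 lower, against 44.7% and 29.1% of genes. With message length 6 were higher and 6 lower, against 43.7% and 29.6% of genes. Cenpp, a subunit of the CENP-O group, stood at 4.73 and 4.79 CPM in RIP, against 19.3 and 17.6 CPM in input (log2 -1.96 ± 0.124; edgeR adjusted p = 4.42e-16). Cenpw, a small histone-fold protein, stood at 17.7 and 18.6 CPM in RIP and 71.1 and 68.8 CPM in input (log2 -1.95 ± 0.0667; edgeR adjusted p = 8.61e-24). Cenpt, which pairs with CENP-W and recruits the Ndc80 complex, rose instead, at 51.0 and 53.0 CPM in RIP and 41.3 and 42.6 CPM in input (log2 0.31). Cenpt stood at -0.04 with total counts and did not pass. Its count over that of Cenpw was 2.88 and 2.86 in RIP, against 0.58 and 0.62 in input. Cenpa, the histone variant that marks the centromere, fell by 0.88 on the log2 scale, but was called higher with the coding length offset (0.25) and lower with the message length offset (-0.22). Cenpc1, which reads it and ties it to the Mis12 complex, stood at 41.4 and 39.9 CPM in RIP and 21.2 and 21.4 CPM in input (log2 0.93 ± 0.0735).

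The 4 genes of the CENP-H, -I, -K and -M group also went separate ways. Cenpi stood at 65.5 and 63.2 CPM in RIP, against 35.1 and 36.2 CPM in input (log2 0.85). Cenpk stood at 3.70 and 4.02 CPM in RIP and 10.3 and 9.73 CPM in input (log2 -1.38), and Cenpm fell by 1.00. Cenpm did not pass with either length offset (-0.11 and -0.07). Cenph did not pass, at 15.5 and 13.9 CPM in RIP and 14.6 and 12.1 CPM in input (log2 0.13, interval -0.08 to 0.35), and its libraries overlapped. It was called higher with both offsets (0.78 and 1.01). Counts of Cenph and Cenpi over Cenpk and Cenpm gave 2.26 and 2.14 in RIP, against 0.66 and 0.66 in input.

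In the CENP-O group, a peripheral part of the inner layer, Cenpu stood at 4.97 and 5.85 CPM in RIP and 11.96 and 12.2 CPM in input (log2 -1.16), and Cenpq fell by 0.36. Cenpq did not pass with either offset (0.19 and -0.06). Cenpo did not pass, at 8.45 and 9.43 CPM in RIP and 10.7 and 9.60 CPM in input (log2 -0.18, interval -0.43 to 0.07). Of the pair that binds CENP-A nucleosomes, Cenpn stood at 23.2 and 24.6 CPM in RIP and 24.9 and 26.8 CPM in input (log2 -0.12, interval -0.27 to 0.04). Cenpl stood at 14.9 and 13.5 CPM in RIP and 13.1 and 14.2 CPM in input (log2 0.06, interval -0.15 to 0.26), and neither passed. With total counts Cenpo (-0.53), Cenpn (-0.46) and Cenpl (-0.29) were called lower. Cenpn and Cenpl were called higher with the offset for coding length (0.22 and 0.36) and for message length (0.30 and 0.32). Cenpo did not pass with the coding length offset (0.28) and was called lower with the message length offset (-0.62).

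In the passenger complex the scaffold and the kinase rose. Incenp, the scaffold, stood at 185.6 and 184.4 CPM in RIP, against 99.5 and 100.5 CPM in input (log2 0.89 ± 0.0369). Aurkb, which encodes Aurora B, stood at 75.4 and 70.3 CPM in RIP and 49.4 and 49.2 CPM in input (log2 0.56). The smaller targeting subunits fell slightly without an offset, and were called higher with the offset for coding length (Birc5 0.91, Cdca8 0.28) and for message length (1.03 and 0.31). Birc5, or survivin, stood at 106.3 and 106.5 CPM in RIP and 120.9 and 120.7 CPM in input (log2 -0.18). Cdca8, or borealin, stood at 61.0 and 68.7 CPM in RIP and 72.7 and 77.7 CPM in input (log2 -0.21). Cdca8 lost its call without RIP replicate 1 (-0.09), input replicate 1 (-0.24) or input replicate 2 (-0.16). Incenp over Birc5 gave 1.75 and 1.73 in RIP, against 0.82 and 0.83 in input.

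Both shugoshins rose without an offset, and with the coding length offset neither passed (Sgo2a 0.17, Sgo1 0.12). Sgo2a, which guards centromeric cohesin in meiosis, was rare at 18.03 and 18.7 CPM in RIP and 8.51 and 9.07 CPM in input (log2 1.06 ± 0.108). Sgo1, which does so in mitosis, stood at 30.7 and 30.6 CPM in RIP and 26.4 and 25.2 CPM in input (log2 0.25). With total counts Sgo1 stood at -0.10 and with the message length offset at -0.05, and it passed in neither. Over the 4 scalings tried (TMM, relative log expression, upper quartile and total counts), 16 of the 44 genes were called higher in each and 13 were called lower in each. The share of all genes with the same call in each of the 4 was not counted. Taken singly, the scalings called 28.7% to 39.2% of all genes higher and 37.9% to 50.8% lower.

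Levels can be set side by side only per length. Per kb of message, Birc5 stood first of the 44 in RIP at 112.4 CPM per kb, followed by Bub1b at 75.7 and Pmf1 at 62.9. In input Pmf1 came first at 142.6 CPM per kb, followed by Birc5 at 127.6 and Cenpa at 79.3. Kntc1 moved to place 13 in RIP, at 33.4 CPM per kb, against place 37 in input, at 6.53. Cenpw moved to place 30 in RIP, at 11.8 CPM per kb, against place 7 in input, at 45.6.

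The order of the 44 fold changes followed the length of the coding sequence. Coding lengths in the annotation ran from 258 nt for Cenpw, on chromosome 10 from 30194569 to 30200560, to 8991 nt for Cenpf. Kntc1, on chromosome 5 from 123749716 to 123821593 (GRCm38), has 6621 nt. All 4 genes of 4000 nt or more and all 9 from 2000 to under 4000 nt rose, as did 82.5% and 73.5% of tested protein-coding genes in those classes. Of 11 genes from 1000 to under 2000 nt 8 rose and 1 fell, against 45.7% and 27.4% of protein-coding genes. Of 20 genes below 1000 nt 2 rose and 12 fell, against 12.9% and 67.8%. Spearman's rho between coding length and log2 fold change was 0.845 over the 44 genes and 0.637 over 14680 protein-coding genes. Against message length rho was 0.755 and 0.589. These are descriptions across genes that share their libraries.

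**Figure D3:**
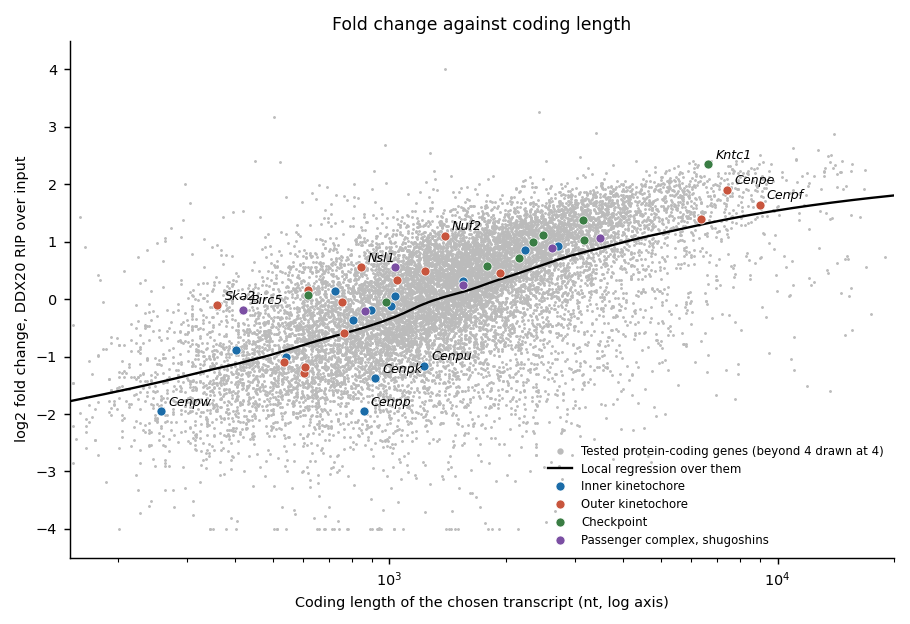
Log2 fold change of DDX20 RIP over input against coding length (log axis) for 14680 tested protein-coding genes (grey), with a local regression over them (black line) and the 44 genes in colour by sub-group. Of the 44 genes 36 lie above the line. Kntc1, Nuf2, Nsl1 and Ska2 lie well above it, and Cenpp, Cenpu and Cenpk well below.

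Of the 44 genes 36 lay above the trend that protein-coding genes follow with coding length, among them all 9 of the checkpoint and all 6 of the passenger group. Over protein-coding genes 56.6% lay above it. With the trend entered as an offset, 29 of the 44 were called higher and 6 lower, against 44.7% and 29.1% of the 14680 genes tested in that fit. Ska2 (1.10), Nsl1 (1.07), Nuf2 (1.07) and Kntc1 (1.03) then stood highest in log2 fold change. Of these, Ska2 and Nsl1 have long untranslated parts, with messages of 3037 and 4879 nt around coding sequences of 360 and 843 nt. With an offset for message length in place of coding length, Ska2 was called lower at -0.28 and Nsl1 did not pass at 0.03, and 27 of the 44 were higher and 9 lower, against 43.7% and 29.6% of genes. Birc5 was above the trend under both offsets (0.91 and 1.03), although it was lower in RIP without them. Called lower without an offset and under each of the 2 were 5 genes, namely Cenpp, Cenpu, Cenpk, Cenpw and Spc24. Called higher in the same 3 fits were 17, with Kntc1, Nuf2, Bub1b, Aurkb and Cenpe among them. The share of all genes with the same call in each of the 3 was not counted. Taken singly, the fits called 43.7% to 44.7% of protein-coding genes higher and 29.1% to 35.0% lower.

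**Figure D4:**
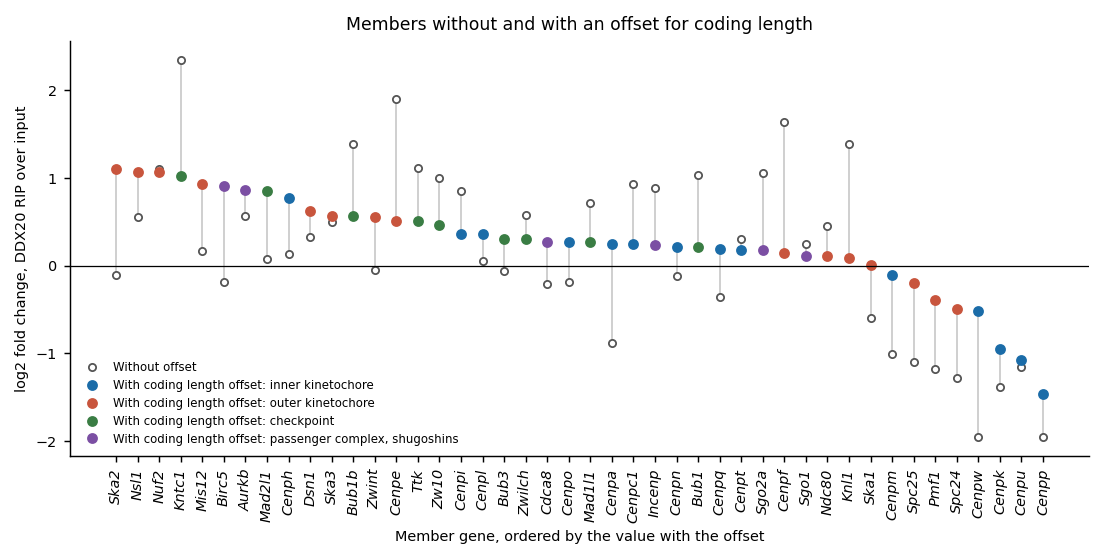
Log2 fold change of DDX20 RIP over input for each of the 44 genes without an offset (open points) and with an offset for coding length (filled points, coloured by sub-group), joined by a grey line. With the offset the long genes Cenpf and Knl1 come near 0 (0.15 and 0.09), and Cenpp (-1.46), Cenpu (-1.08) and Cenpk (-0.94) stay lowest.

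Some of these genes share sequence with neighbours or copies. Exons of 13 of the 44 overlap exons of another gene, in each case on the opposite strand, and the library kit does not mark strand. Cenpp, on chromosome 13 from 49464023 to 49652785, overlaps Ippk and Aspn, Cenpu overlaps Primpol, and Cenpk overlaps Ppwd1. Of genes called higher, Ska3 (mean 21.1 CPM) overlaps Sap18 (167.25 CPM) and Mis12 (50.8 CPM) overlaps Derl2 (54.7 CPM). Cenpt, Mad1l1 and Zwilch, also higher, overlap Tsnaxip1, Gm16121 and Lctl. Cenpo overlaps Adcy3 and Ptrhd1, Cenpq overlaps Mut, Ska2 overlaps Gm11491 and Cdca8 overlaps 9930104L06Rik. Sgo2a shares 2363 nt of its message with Kctd18. Cenpc1, Ndc80, Mad2l1 and Ska2 have copies elsewhere of at least 95% identity over at least 200 nt, and their values are uncertain to that extent. Among the 28 genes with neither, 15 rose and 8 fell, or 53.6% and 28.6%, against 38.7% and 38.6% of all genes tested. The part of shared reads in the 16 others was not tested.

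The SMN complex recognises an A, a run of U and a G, the Sm site of small nuclear RNAs. The letters ATTTTTG were searched on the sense strand of the message of each gene, as the sequence that the precipitated complex is known to handle. They stood in 11 of the 44 messages (25.0%) and in 28.4% of 14680 protein-coding messages, at 0.101 and 0.120 per kb. They were in 6 of 23 members that rose (26.1%), against 35.4% of all protein-coding genes that rose. They were in 3 of 13 that fell (23.1%), against 21.01% of those that fell. Neither Kntc1 nor Cenpe held them. In coding sequence they stood in 5 of the 44 (11.4%), against 9.03% of protein-coding genes. Windows that did not lie whole within 1 exon, for Knl1 and for another match in Bub1, are not shown. Matches in untranslated parts are not shown either. The other coding matches are given as 30-base windows of the annotated transcript, with the searched letters in capitals (GENCODE M21, GRCm38).
Bub1: ctgcttttcctATTTTTGaagatggaaaca
Bub1b: tgcctttctccATTTTTGatgagtctcttt
Cenpa: ccgtggtgtggATTTTTGgtggcaagccca
Sgo2a: gaggaagccagATTTTTGtacaaaggtgtt
The windows lie at chr2:127813842-127813871 on the minus strand for Bub1, and on the plus strand at chr2:118626032-118626061 for Bub1b, chr5:30673008-30673037 for Cenpa and chr1:58017730-58017759 for Sgo2a. Bub1, Bub1b and Sgo2a were higher in RIP and Cenpa was lower. A match is a description of the letters and not a binding site.

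Other genes of the pathway were counted in 3 lists. Among 20 genes of the spindle and of microtubule ends 18 rose and 1 fell, against 38.7% and 38.6% of all genes tested, and the median was 1.43 on the log2 scale, against -0.05. Ckap5, a microtubule polymerase, stood at 856.8 and 851.4 CPM in RIP, against 180.2 and 186.3 CPM in input (log2 2.22 ± 0.0277). Tpx2, the activator of Aurora A on the spindle, rose by 1.58, and Nusap1, which bundles spindle microtubules, fell by 0.41 on the log2 scale. All but 1 of these 20 genes, Nusap1, lay above the coding length trend, against 56.6% of protein-coding genes.

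Of 12 partners of the checkpoint, 9 were higher and 1 was lower, against 38.7% and 38.6% of all genes tested. With total counts 3 were higher and 3 lower, against 28.7% and 50.8%. Tpr, a nuclear pore protein that binds Mad1, rose by 1.67, and Cdc20, the target of the checkpoint, by 0.37 (0.02 with total counts, not called). Mad2l2 fell by 0.75 on the log2 scale, but did not pass with the coding length offset (-0.0012). Among 9 genes of centromere loading and accessory function 2 were higher and 6 lower, against 38.7% and 38.6% of all genes tested. When total counts set the scale 1 was higher and 8 were lower, against 28.7% and 50.8%. Hjurp, the chaperone that deposits CENP-A, rose by 1.16. Cenpb, which binds a sequence of centromeric satellite DNA, stood at 0.25, and at -0.10 with total counts, where it was called lower. It did not pass with the coding length offset (-0.03) and was called lower with the message length offset (-0.29). Cenpx, a small histone-fold partner of the CENP-T group, stood at 21.9 and 19.6 CPM in RIP, against 94.9 and 94.9 CPM in input (log2 -2.19 ± 0.0613). Cenpv fell by 1.16, but did not pass with the message length offset (-0.04). Ddx20 itself rose by 0.96 ± 0.0552.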

How the data were processed

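The authors deposited unnormalised read counts by Ensembl gene, with a column for each library. The tools named, per the submitters' processing notes, are STAR 2.7.2b, featureCounts, cutadapt 4.1, Trimmomatic 0.36 and SAMtools, and the build is GRCm38. How they were run, and the annotation release, is not given in the sources used here. Libraries were made with a kit that does not mark strand and read as 150-nt pairs, per the labels' protocols. From 65.37% to 67.4% of nonzero counts were even, as arises when both mates are counted, which overstates depth.

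Symbols, lengths and coordinates came from GENCODE M21 (GRCm38), which names 52081 identifiers and all 44 members; none of the 44 carries the same version number there, so gene models can differ. Coding and message lengths are those of the transcript of best APPRIS rank, then the longest coding sequence. Genes were kept by filterByExpr, scaled by TMM and tested with edgeR 4.0.16 (robust quasi-likelihood) under R 4.3.3. Adjusted p-values follow Benjamini and Hochberg over every gene tested, and calls were made at 0.05. Standard errors are the log2 fold change over the square root of F, and 95% intervals are 1.96 standard errors each way. Scripts were checked on simulated counts. Chi-square statistics of halved counts had medians 1.152 (RIP) and 1.193 (input) times sampling noise between replicates, against 61.17 between RIP and input, so replicates were kept separate. Copies were sought with blastn 2.17.0.

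The members, lists and tests were chosen with earlier results of these data known. Values in every library are given for the 4 largest called changes per direction in each sub-group and for members that did not pass. Other lists give the 2 called genes of highest mean CPM per direction. Alternatives were other scalings and filters, DESeq2 1.42.0, limma-voom (limma 3.58.1), blocking on replicate number, leaving out 1 library at a time, halved counts and an offset for coding length (loess, span 0.3); message length and the count without overlapping genes or copies were added after seeing the data.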

Additional observations from a re-analysis of the deposited data

How the results depend on the processing

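DESeq2, limma-voom and scaling by relative log expression left the call and direction of all 44 members as they were. So did the replicate number as a block, with 23 members higher and 13 lower, and 6734 genes higher and 6655 lower; the labels do not say that the numbers pair the samples, and same-numbered deviations correlated at 0.014. Leaving out 1 library in turn gave 23 to 24 members higher and 12 to 13 lower, and 1 to 2 passenger genes lower; Bub3 ran from -0.075 to 0.037, positive without RIP replicate 1, and Zwint from -0.053 to 0.044, positive without RIP replicate 2, both uncalled.

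With total counts 21 members were lower, the outer kinetochore had 4 higher and 7 lower, and the checkpoint had 2 lower; upper-quartile scaling gave the same 21, 4, 7 and 2. In the other lists both scalings gave 1 centromere loading gene higher, 3 checkpoint partners higher and 3 lower, and 2 spindle genes lower. Signs turned in Cenph (-0.21 and -0.21), Cenpl (-0.29 and -0.29), Cenpt (-0.039 and -0.033), Mis12 (-0.18 and -0.18), Dsn1 (-0.019 and -0.012), Mad2l1 (-0.27 and -0.26), Sgo1 (-0.10 and -0.094) and Cenpb (-0.10 and -0.094). Requiring a mean CPM of at least 5, which changes the genes TMM uses, turned Cenph (-0.14), Cenpl (-0.22), Mis12 (-0.11), Mad2l1 (-0.20), Sgo1 (-0.027) and Cenpb (-0.027), and gave 2 checkpoint genes lower, 1 centromere loading gene higher, 3 checkpoint partners lower and 2 spindle genes lower. With no filter Zwint stood at 0.011. Halved counts gave 1 checkpoint gene and 2 checkpoint partners lower.

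The coding length offset, fitted to 14680 genes, gave 4276 genes and 6 members lower. The inner kinetochore then had 7 higher and 4 lower, the outer kinetochore 2 lower, and the passenger group and the checkpoint partners 0 lower each. Among all genes in that fit 44.7% were higher and 29.1% lower. Signs turned in Cenpa (0.25), Cenpn (0.22), Cenpo (0.28), Cenpq (0.19), Zwint (0.56), Ska1 (0.0050), Ska2 (1.10), Bub3 (0.31), Birc5 (0.91), Cdca8 (0.28) and Cenpb (-0.029). The message length offset gave 4346 genes lower, 6 inner kinetochore genes higher, 0 passenger genes lower and 4 centromere loading genes higher, and turned Cenpn (0.30), Zwint (0.33), Mis12 (-0.0014), Bub3 (0.084), Birc5 (1.03), Cdca8 (0.31), Sgo1 (-0.0545) and Cenpb (-0.29). Without genes that have an overlap or copy, 15 members were higher and 8 lower of 28, against 38.7% and 38.6% of all genes tested. The cause of these shifts was not tested. The member with fewest counts, Cenpk, had 125 and 136 in RIP, against 255 and 235 in input.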
